A study of Mus musculus with 50 samples.

Results

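This comparison set mice reared in RF2 against mice reared in RF3 at 8 weeks of age (TP1), before any mouse left its rearing facility (RF). It used 10 of the 50 ATAC-seq libraries of the study, 5 per facility and 1 mouse per library, chosen by the facility and time point (TP) in their labels, and all 144465 merged peaks. The study raised the offspring of time-mated dams from 1 breeder in 5 RFs and asked how far the ordinary husbandry of a facility shapes the animals, among other readouts through chromatin accessibility in neurons. Each mouse of both groups was an untreated male of the inbred strain C57BL/6JRj with no introduced allele, and the label "hexane" names how the tissue was frozen. RF2 kept its mice in individually ventilated cages under a normal light cycle, with an Altromin diet, autoclaved water and handling by the tail or neck. RF3 kept them in open-top cages under a reversed light cycle, with a Kliba Nafag diet, tap water and handling by tunnel or cupped hands. All of these differed together, as did the site, Hannover for RF2, as for RF1, and Bern for RF3. At TP1 the same person killed the mice inside each RF and was not blind to it, so that the place of collection differed too. Diet, light, caging, water, handling and the place of collection cannot be told apart in this pair. Nuclei came from 1 hemisphere's ventral hippocampus, and 80000 nuclei positive for NeuN were sorted per library in 5 batches that each held 1 sample per RF.

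In ATAC-seq the transposase Tn5 cuts and tags DNA that is not wrapped around nucleosomes, so that the reads pile up at active promoters, enhancers and other open sites. Promoters of widely used genes are open in nearly every cell, whereas sites far from genes tend to be open in few cell types. NeuN, the product of Rbfox3, marks the nuclei of most mature neurons, and the ventral hippocampus is the part of the hippocampus linked to anxiety and stress responses. A sort on NeuN is meant to leave out astrocytes, oligodendrocytes, microglia and vessel cells. Because the libraries are bulk, a change in the share of nuclei of one type and a change in accessibility per nucleus cannot be told apart.

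Total counts over peaks ranged from 40517766 to 77396321 in RF2 and from 36808242 to 57801417 in RF3, and the most deeply sequenced libraries were replicate 1 of each RF. If each read pair is taken to give 2 counts, the RF3 libraries of replicates 3, 4 and 5 differed from each other by no more than sampling noise. Without this assumption their variance was 1.94 to 1.98 times the binomial one. These libraries were counted as 1 sample in means and SDs, which gives n = 3 for RF3 and n = 5 for RF2. Values per library are given below as CPM, counts relative to the library's total, scaled by TMM factors. All 7 pan-neuronal markers were open: Rbfox3 itself lay at 33.7 to 38.5 CPM in RF2 and 39.1 to 41.1 CPM in RF3. Promoters of glial genes were lower but not at 0, and no marker with a promoter peak was at 0 in any library. The summed CPM of 5 markers of the ventral hippocampus was 28.7 to 31.8 in RF2 and 26.2 to 29.4 in RF3.

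The 2 facilities differed over the whole profile. Facility accounted for 35.1% of the variation in Manhattan distances among the 10 libraries (exact permutation p = 0.00794, the smallest that 252 arrangements allow). This and the other permutation tests took every library as a mouse of its own, 5 against 5 unless 1 was left out. They include the alike libraries of RF3 that means and SDs count as 1. A differentially accessible region (DAR) was a peak with an edgeR adjusted p below 0.01 whose log2 fold change was 0.5 or more in either direction, with RF2 subtracted from RF3 throughout. There were 3126 DARs among 144458 tested peaks (2.16%), 1763 higher in RF3 (1.22%) and 1363 higher in RF2 (0.944%). Without the limit on size 11335 peaks passed (7.85%), 7545 higher in RF3 and 3790 higher in RF2. Most changes were modest, with a median absolute log2 fold change of 0.62 in the first set and 0.64 in the second, and 75 and 84 peaks went beyond 1. The difference had the same sign in all 5 pairs of like-numbered libraries for 97.5% of the DARs higher in RF3 and 94.0% of those higher in RF2, against 30.6% of all peaks, although the sign of these DARs was part of their choice.

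The number of calls depended on single libraries and on the scaling. It fell to 1957 without RF2 replicate 3, and the DARs higher in RF2 fell to 699 without RF2 replicate 3, 843 without RF2 replicate 4, 829 without RF3 replicate 4 and 796 without RF3 replicate 5. Taking out the mean ratio of each 1 Mb region left 934 DARs higher in RF3 and 530 higher in RF2, a loess scaling gave 2119 and 1013, and a fit on the 10 libraries alone gave 1956 and 2270, so that which facility held more DARs was not settled by these counts. With the alike RF3 libraries, and those of the other RFs, summed, 932 and 379 peaks were called.

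The DARs of both directions were small, weak sites. Their median widths were 951 bp for those higher in RF3 and 906 bp for those higher in RF2, against 1505 bp over all peaks, and their median levels were 2.59 and 1.84 CPM against 3.82 CPM. They sat in different places along the genome. Peaks higher in RF3 lay a median of 15.9 kb from the nearest gene start, those higher in RF2 103 kb, and all tested peaks 35.3 kb. Of the 19459 peaks over 200 kb from any start, 91 were higher in RF3 and 412 higher in RF2, whereas of the 18809 peaks at 2 to 10 kb, 430 were higher in RF3 and 98 higher in RF2. The authors' peak calls on each library alone gave another view of these sites: 45% to 62.4% of the DARs higher in RF3 were in the RF2 libraries' own lists and 76.9% to 81.8% in those of RF3. Of the DARs higher in RF2, 65.2% to 88.2% were in the RF2 lists and 23.8% to 30.6% in the RF3 lists. These lists come from the same reads and are a description, and the lists of RF2 held 70.1% to 82.1% of all merged peaks against 62.3% to 66.6% in RF3.

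Set among all 5 RFs at TP1, RF3 was at the end of the range at most of these sites. The RF2 and RF3 libraries that chose the sites also enter these ranks, so that the choice itself favours an end position for RF2 or RF3. The mean CPM was highest in RF3 at 1478 of the 1763 DARs higher in RF3, and RF2 was the lowest at 263 of them. Among the 1363 DARs higher in RF2, RF3 was the lowest at 928 and RF2 the highest at 336. On the log2 scale RF4 and RF5 were nonetheless nearer to RF3 than to RF2 at 946 and 964 of these 1363, and RF1 at 54. At the DARs higher in RF3 they were nearer to RF3 at 781 (RF4), 695 (RF5) and 80 (RF1).

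At gene starts the difference ran almost entirely one way. Of 17327 promoter peaks, those within 2 kb of a start, 255 were higher in RF3 (1.47%) and 28 higher in RF2 (0.162%). Of 75431 peaks inside genes 729 (0.966%) and 602 (0.798%) were, and of 51700 outside genes 779 (1.51%) and 733 (1.42%). The share higher in RF3 was thus near that outside genes, and promoters stood apart by having few DARs higher in RF2. Among the 15364 genes with a tested promoter peak, 257 had a promoter DAR higher in RF3 (1.67%) and 28 one higher in RF2 (0.182%). Without the limit on size, the peak nearest to the start passed the test in 1582 genes higher in RF3 (10.3%) and 276 higher in RF2 (1.8%), and the median over all genes was 0.08 on the log2 scale. This median was 0.01 under a loess scaling and 0.00 with region means removed, while a loess scaling called 272 genes with a promoter DAR higher in RF3 and 27 higher in RF2. Leaving out single libraries gave 203 to 331 genes higher in RF3 and 17 to 38 higher in RF2. With the mean ratio of every 1 Mb region removed, 101 and 15 genes remained, of which 87 and 10 were among the 257 and 28. The share of all counts that fell in promoter peaks was 35.4% ± 0.863 in RF2 (SD, n = 5) and 35.9% ± 0.936 in RF3 (SD, n = 3), a difference of 0.785 percentage points over the 10 libraries that did not pass the test (two-sided exact permutation p = 0.167). Without RF3 replicate 1 it was 1.12 points (exact permutation p = 0.0397).

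The promoter sequences of 5 genes described in what follows are shown first, to place their peaks. Each runs from 250 bases before to 50 bases after the gene start on the gene's strand, from RefSeq on GRCm38.p6. Capitals mark matches on either strand to the TATA box (TATAAA), the CCAAT box (CCAAT), the GC box (GGGCGG), the E-box (CACGTG) and the CRE (TGACGTCA), whose letters do not overlap each other here. Aqp1 (chr6:55336049-55336348, plus strand) and Rlbp1 (chr7:79386978-79387277, minus strand) stand for promoters with a large rise in RF3, Smad6 (chr9:64022010-64022309, minus strand) for a CpG-rich promoter that rose, Frem3 (chr8:80610789-80611088, plus strand) and the histone gene H2bc12 (chr13:22035571-22035870, plus strand) for promoters higher in RF2.
Aqp1: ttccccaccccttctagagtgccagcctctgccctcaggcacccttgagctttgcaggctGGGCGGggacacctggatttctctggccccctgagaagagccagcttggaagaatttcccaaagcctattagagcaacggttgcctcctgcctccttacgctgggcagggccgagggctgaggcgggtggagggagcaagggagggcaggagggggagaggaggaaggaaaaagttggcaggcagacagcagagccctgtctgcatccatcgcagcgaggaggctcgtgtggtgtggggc
Rlbp1: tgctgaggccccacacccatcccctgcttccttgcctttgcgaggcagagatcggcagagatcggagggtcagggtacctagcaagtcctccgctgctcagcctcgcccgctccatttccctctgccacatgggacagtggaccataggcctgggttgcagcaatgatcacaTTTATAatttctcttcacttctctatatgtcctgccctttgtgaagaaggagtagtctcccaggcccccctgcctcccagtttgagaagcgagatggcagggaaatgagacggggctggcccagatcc
Smad6: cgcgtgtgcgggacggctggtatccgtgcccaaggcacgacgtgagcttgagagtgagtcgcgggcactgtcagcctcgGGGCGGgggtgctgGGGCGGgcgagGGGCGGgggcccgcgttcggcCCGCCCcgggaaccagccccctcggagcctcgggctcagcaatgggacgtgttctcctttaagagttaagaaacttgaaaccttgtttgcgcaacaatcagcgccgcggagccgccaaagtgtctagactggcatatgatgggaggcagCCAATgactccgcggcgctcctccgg
Frem3: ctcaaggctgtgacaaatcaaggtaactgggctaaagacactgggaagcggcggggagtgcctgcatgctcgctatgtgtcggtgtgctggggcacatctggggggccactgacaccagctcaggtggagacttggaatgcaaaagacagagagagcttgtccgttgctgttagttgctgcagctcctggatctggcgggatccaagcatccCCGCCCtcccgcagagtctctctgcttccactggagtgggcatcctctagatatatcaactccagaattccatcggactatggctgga
H2bc12: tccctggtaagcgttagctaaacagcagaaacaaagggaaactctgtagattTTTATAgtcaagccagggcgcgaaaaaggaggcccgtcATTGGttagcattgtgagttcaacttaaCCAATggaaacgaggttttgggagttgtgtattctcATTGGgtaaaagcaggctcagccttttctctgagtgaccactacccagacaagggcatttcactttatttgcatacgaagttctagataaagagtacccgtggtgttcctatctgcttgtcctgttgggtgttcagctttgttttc
These windows hold 8 CpGs in Aqp1, 8 in Rlbp1, 31 in Smad6, 9 in Frem3 and 7 in H2bc12. Over the 12085 tested genes with a sequence, the median was 20 CpGs and 61.0% GC. The 193 sequenced genes with a promoter DAR higher in RF3 had a median of 12 CpGs and 60.7% GC, and the 20 with one higher in RF2 had 8.5 CpGs and 51.8% GC. A TATAAA stood in 7.19% of all windows, a CCAAT in 38.1%, a GGGCGG in 63.2%, a CACGTG in 9.68% and a TGACGTCA in 3.12%. In the genes higher in RF3 these shares were 7.77%, 34.7%, 58.0%, 7.25% and 0%. No test was made on these shares.

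Among promoter DARs with a mean of at least 1 CPM and the same sign in all 5 pairs of like-numbered libraries, the 8 with the largest rise in RF3 were those of Aqp1, Syt8, Rlbp1, Myt1, Apoc1, Fxyd1, Slc38a3 and Fgr. Aqp1, which encodes a water channel known from the choroid plexus, had a peak over its start at chr6:55335976-55336431 with 1.01, 1.01, 1.44, 1.25 and 1.09 CPM in RF2 and 2.73, 2.90, 2.22, 2.47 and 2.37 CPM in RF3, in replicate order. Every RF3 library lay above every RF2 library, the means were 1.16 ± 0.186 CPM in RF2 (SD, n = 5) and 2.66 ± 0.277 CPM in RF3 (SD, n = 3), and the log2 fold change was 1.15, SE 0.17, adjusted p = 2.16e-06. Rlbp1, which encodes a carrier of retinaldehyde found in glia of the retina, had 1.69, 1.03, 1.13, 1.48 and 1.78 CPM in RF2 and 2.96, 3.50, 2.22, 3.17 and 2.32 CPM in RF3 at chr7:79386361-79387354. Again the groups did not overlap, with a change of 0.98, SE 0.15, adjusted p = 6.28e-06. Slc38a3, a glutamine transporter of astrocytes, had 3.74, 4.96, 4.45, 3.19 and 3.89 CPM in RF2 and 7.30, 7.72, 7.54, 7.92 and 7.28 CPM in RF3 at chr9:107649910-107651624, a change of 0.91, SE 0.09, adjusted p = 6.93e-10. The annotation used gives no strand for Slc38a3, so this peak is at 1 of the gene's ends.

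Myt1, a zinc finger factor of the oligodendrocyte lineage and of developing neurons, had 1.79, 1.57, 1.73, 1.26 and 1.26 CPM in RF2 and 2.84, 2.56, 3.37, 2.39 and 3.71 CPM in RF3 at chr2:181795411-181796508 (0.95, SE 0.14, adjusted p = 6.48e-06). Fxyd1, which encodes a regulator of the sodium pump, had 2.11, 2.18, 2.05, 1.60 and 2.55 CPM in RF2 and 3.86, 4.00, 3.96, 4.18 and 3.82 CPM in RF3 at chr7:31055470-31055804 (0.93, SE 0.13, adjusted p = 1.10e-06). The libraries of the 2 RFs did not overlap at either gene. Syt8, a member of the synaptotagmin family, had 0.756 to 1.29 CPM in RF2 and 1.82 to 2.17 CPM in RF3 (1.07, SE 0.19, adjusted p = 6.77e-05), Apoc1, an apolipoprotein gene beside Apoe, had 2.51 to 3.19 CPM in RF2 and 4.74 to 6.52 CPM in RF3 (0.93, SE 0.11, adjusted p = 5.43e-08, strand not known), and Fgr, a Src-family kinase of myeloid cells, had 1.41 to 1.62 CPM in RF2 and 2.70 to 3.04 CPM in RF3 (0.90, SE 0.13, adjusted p = 2.74e-06). At all 8 genes RF3 also had the highest mean of the 5 RFs, although they were chosen for being high in RF3 against RF2.

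The promoters higher in RF2 were fewer, and by the same rule, which leaves out larger changes below 1 CPM, the 8 with the largest change were those of Prps1l3, Olfr452, Il1a, 6030498E09Rik, Slc17a2, Frem3, Paqr8 and Tbc1d23. Il1a, which encodes the cytokine interleukin-1 alpha, had 1.72, 2.37, 1.69, 1.97 and 1.86 CPM in RF2 and 1.00, 0.875, 1.12, 1.24 and 1.15 CPM in RF3 at a peak 1183 bp inside the gene (chr2:129308357-129308789), a change of -0.84, SE 0.17, adjusted p = 3.81e-04. Frem3, a gene of an extracellular matrix protein, had 1.79, 1.81, 2.29, 1.54 and 1.88 CPM in RF2 and 1.21, 1.32, 1.07, 1.01 and 1.01 CPM in RF3 at chr8:80610774-80611715 (-0.71, SE 0.18, adjusted p = 0.00430). Paqr8, which encodes a membrane progesterone receptor, had 1.90, 1.79, 1.76, 1.80 and 2.13 CPM in RF2 and 1.00, 1.3, 1.07, 1.09 and 1.28 CPM in RF3 at chr1:20919812-20920230 (-0.71, SE 0.15, adjusted p = 9.83e-04). All 5 RF2 libraries lay above all 5 RF3 libraries at each. Prps1l3, a gene like that of a nucleotide synthesis enzyme, changed by -1.13, SE 0.17, adjusted p = 6.59e-06, with 1.65 to 2.83 CPM in RF2 and 0.763 to 1.07 CPM in RF3. The olfactory receptor gene Olfr452 changed by -0.87, the uncharacterised 6030498E09Rik on the X chromosome by -0.82, Slc17a2, a phosphate transporter family gene next to the histone cluster, by -0.78, and Tbc1d23, a gene of Golgi trafficking, by -0.67. The peaks of Il1a, Olfr452, 6030498E09Rik, Slc17a2, Frem3, Paqr8 and Prps1l3 were in no RF3 library's own peak list. Frem3 and 6030498E09Rik each lost the call in 5 of 18 alternative analyses.

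Promoters of several glial marker genes were more open in RF3, in nuclei that were sorted as neuronal. Of 9 astrocyte markers, 5 passed an adjusted p of 0.01 at the peak nearest to the start, all higher in RF3, against 10.3% of all genes, and 3 of these had a promoter DAR. Gfap, the intermediate filament of astrocytes, had 3.94, 4.03, 3.45, 3.37 and 3.67 CPM in RF2 and 5.71, 6.98, 6.52, 6.63 and 6.54 CPM in RF3 (0.81, SE 0.10, adjusted p = 6.83e-08). Aldh1l1, a folate enzyme used as an astrocyte marker, had 2.37, 2.67, 2.49, 2.11 and 2.75 CPM in RF2 and 3.34, 4.38, 4.78, 4.01 and 3.90 CPM in RF3 (0.72, SE 0.12, adjusted p = 3.00e-05). Neither gene's groups overlapped. Apoe, the main brain apolipoprotein, had 7.44, 6.92, 6.87, 6.85 and 6.87 CPM in RF2 and 10.2, 8.33, 10.2, 10.8 and 10.3 CPM in RF3 (0.50, SE 0.08, adjusted p = 9.40e-06), just past the limit on size, and lost its DAR call in 12 of 18 alternative analyses. Sox9 (0.29) and Fgfr3 (0.36) rose by less, while Aqp4, the astrocytic water channel, stood at -0.32 with an adjusted p of 0.0572 and Slc1a3, the glutamate transporter GLAST, at -0.07. The median of the list was 0.29 against 0.08 over all genes, and its summed level was 64.0 to 68.2 CPM in RF2 and 79.2 to 82.1 CPM in RF3.

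Of 10 genes of the oligodendrocyte lineage 6 had a promoter peak, and 3 of them rose. Olig2, a transcription factor of the lineage, had 2.32, 1.57, 1.56, 1.83 and 2.45 CPM in RF2 and 2.58, 3.10, 2.86, 4.10 and 3.38 CPM in RF3 (0.70, SE 0.14, adjusted p = 4.41e-04). Olig1, its neighbour and relative, rose by 0.52 and Sox10 by 0.47, while the myelin genes Mbp (-0.07) and Cnp (0.06) did not pass. The remaining gene with a peak had the lowest value of the list, -0.31, and did not pass either. The summed level of the list was 47.1 to 50.5 CPM in RF2 and 49.0 to 56.1 CPM in RF3, so that the groups overlapped. Of 10 microglia markers 7 had a peak and 2 rose, Tmem119 by 0.66 (1.85 to 2.16 CPM in RF2 and 2.64 to 3.66 CPM in RF3) and Aif1 by 0.34. The values of these 7 ran from -0.25 to 0.66, and 6 were positive. The median was 0.27 for the oligodendrocyte and 0.13 for the microglia list, and the microglia sums were 43.9 to 47.4 CPM and 46.2 to 55.4 CPM. None of the 3 endothelial markers with a peak passed. Of the choroid plexus and ependyma genes 3 had a peak, and none passed at the peak nearest to the start (highest 0.19). Foxj1 of this list, the regulator of motile cilia, had a DAR at another peak, 278 bp from 1 of its ends (0.79). With region means taken out, 2 astrocyte, 2 oligodendrocyte and 1 microglia markers passed, all higher in RF3. This fit passed 6608 peaks in all, against 11335 in the main fit.

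The neuronal lists gave another picture. Of the 7 pan-neuronal markers Nefm, a neurofilament subunit, passed as lower in RF3 (-0.22) and none passed as higher, with a median of -0.12 and sums of 275 to 303 CPM in RF2 and 265 to 289 CPM in RF3. Snap25 stood at -0.18 and Rbfox3 at 0.16, both short of the threshold. A loess scaling called 4 of the 7 lower, and the fit on the 10 libraries alone 3 lower and 1 higher. Over all peaks the loess scaling passed 11159 and the 10-library fit 23428, against 11335 in the main fit. Of 9 dentate granule cell markers Calb1, the calcium buffer calbindin, passed at -0.42, and of 16 interneuron markers with a peak Reln, the secreted protein reelin, at -0.32. The lists of CA1 and CA3 pyramidal neurons had medians near 0.05 and no member past the test. The rise of glial markers moved with the promoter changes described above, and their part in them was not tested. All marker genes with a DAR are named here, and they were picked for naming after their values were seen.

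**Figure D1:**
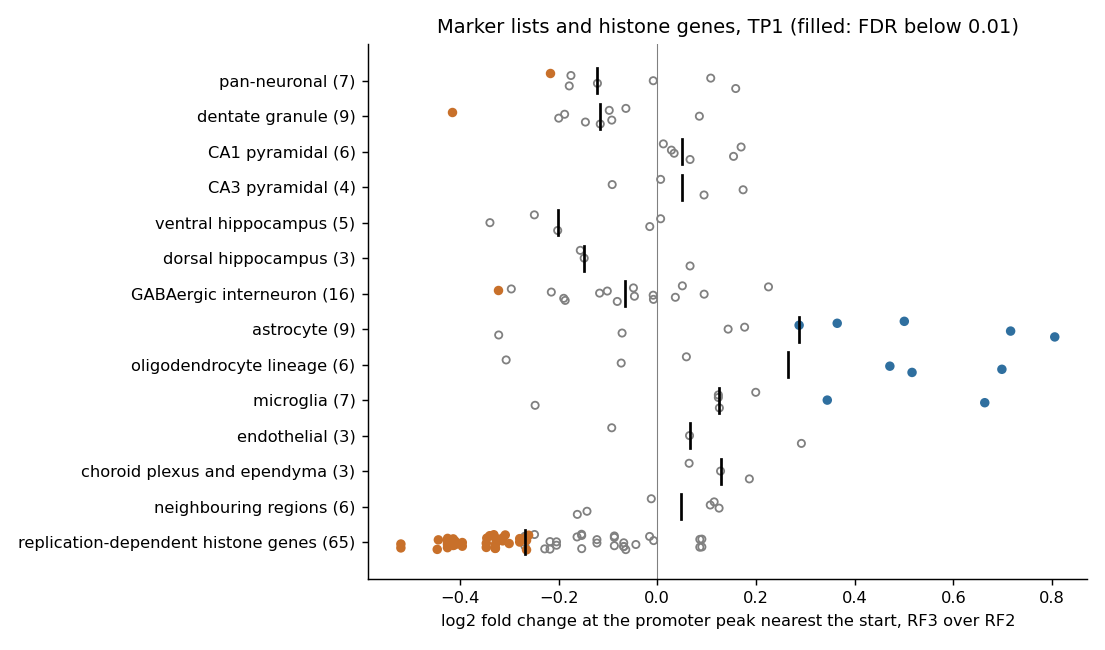
Log2 fold change (RF3 against RF2, horizontal axis) of the promoter peak nearest to the start for the genes of the 13 cell type lists and the histone genes, 1 point per gene, with the number of genes in brackets and a black bar at each list's median. Filled points passed an adjusted p of 0.01. The astrocyte list has a median of 0.29, the pan-neuronal list one of -0.12 and the histone genes one of -0.27.

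In 3 lists of developmental signalling pathways more members passed as higher in RF3 than as higher in RF2, as among all genes, of which 10.3% were higher and 1.8% lower. In Notch signalling 20 of 21 genes had a promoter peak, and 3 passed, all higher: the receptor Notch1 (0.44) and the target genes Hes5 (0.37) and Heyl (0.43). Lfng, which encodes a glycosyltransferase that tunes Notch receptors, had a DAR 1212 bp from its start with 13.4, 15.1, 14.4, 12 and 14.2 CPM in RF2 and 16.9, 19.2, 20.8, 20.4 and 21.1 CPM in RF3 (0.51, SE 0.07, adjusted p = 1.50e-06), and Heyl had a second peak called as a DAR. In Wnt signalling 5 of 27 genes were higher in RF3 and 1 lower. The receptors Fzd2 (0.45), Fzd4 (0.26) and Lrp5 (0.46) and the nuclear effectors Tcf7l1 (0.36) and Tcf7l2 rose, and Apc, a scaffold of the complex that degrades beta-catenin, fell (-0.25). Tcf7l2 had 3.05, 3.02, 2.91, 2.74 and 3.84 CPM in RF2 and 5.27, 4.74, 4.83, 4.41 and 4.91 CPM in RF3 (0.64, SE 0.11, adjusted p = 5.73e-05), with no overlap. In TGF-beta and BMP signalling 3 of 24 genes were higher and 1 lower. The inhibitor Smad6 had 6.88, 7.41, 7.49, 6.72 and 6.54 CPM in RF2 and 10.6, 11.4, 12.5, 10.9 and 12.1 CPM in RF3 (0.71, SE 0.07, adjusted p = 9.73e-10), the ligands Tgfb1 (0.41) and Bmp7 (0.42) rose and the receptor Acvr2a fell (-0.38). The medians of the 3 lists were 0.12, 0.14 and -0.01 against 0.08 over all genes. Lfng lost the call in 9 of 18 alternatives.

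The lists of synaptic adhesion genes and of acetylcholine, serotonin, glutamate and GABA receptors held no promoter DAR, and the changes below are to be read beside the 10.3% of all genes higher and 1.8% lower in RF3. Of 22 synaptic adhesion genes 5 fell, the neurexin gene Nrxn3 (-0.30), the netrin-G gene Ntng1 (-0.35) and Lrrtm1, Lrrtm3 and Lrrtm4 (-0.25, -0.24 and -0.27), which encode postsynaptic neurexin partners. Ntng2 (0.36) and Lrrc4b (0.31) rose. Ntng1 ran from 15.9 to 19.8 CPM in RF2 and from 13.1 to 14.4 CPM in RF3. The median of the list was -0.17, but -0.02 with region means taken out, when 2 fell and 1 rose. A fit on the 10 libraries alone called 11 lower and 3 higher, and with alike libraries summed none passed in either direction. Over all peaks the main fit passed 11335, the fit with region means taken out 6608 and the summed fit 2255. The 10-library fit passed 23428 and a loess scaling 11159. Of 11 acetylcholine receptor genes with a promoter peak, the muscarinic Chrm1 rose (0.29) while Chrm2 (-0.44) and Chrm3 (-0.43) fell. Of 12 serotonin receptor genes Htr1a (-0.35) and Htr1b (-0.39) fell and Htr1d rose (0.37). Of 25 glutamate receptor genes 4 fell and 1 rose. Among the ionotropic ones Gria2 (-0.21), Gria3 (-0.28) and Grik1 (-0.35) fell and Grik5 rose (0.39). None of the 15 GABA receptor genes passed, although the fit on the 10 libraries alone called 4 lower and 2 higher and a loess scaling 2 lower. The medians of the acetylcholine, serotonin, glutamate and GABA receptor lists were -0.02, -0.05, -0.01 and -0.14. Of 18 postsynaptic scaffold genes 1 fell and none rose, with 13 positive values and a median of 0.08. Of 22 presynaptic release genes 1 rose and 1 fell, with 11 positive values and a median of 0.00. These 2 lists held no promoter DAR either.

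Lists tied to hormones, time of day and activity had 1 or 2 members each past the test, to be read beside 10.3% of all genes higher and 1.8% lower. The mice of the 2 RFs lived under opposite light cycles and were killed in the first hours after lights on. Of 21 circadian clock genes, Dbp, an output gene of the clock, had 112 to 130.4 CPM in RF2 and 140.3 to 151 CPM in RF3 (0.29), and Arntl, which encodes the core activator BMAL1, rose by 0.21. The other 19 did not pass, and the median was 0.03. Of 21 immediate early genes Nr4a1 passed (0.24), and of 13 genes of glucocorticoid and CRH signalling the neuropeptide gene Crh passed (-0.43), with 6.19 to 8.98 CPM in RF2 and 4.93 to 6.75 CPM in RF3. Adra1b, an adrenergic receptor gene, had a DAR 1354 bp inside the gene that was higher in RF2 (-0.62, SE 0.16, adjusted p = 0.00665), lost in 11 of 18 alternatives. Of 33 genes of histone and DNA modifiers Hdac6 (0.22), a deacetylase gene, and Chd4 (0.23) rose and Chd7 (-0.37) fell, the last 2 of them chromatin remodellers.

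Of 81 potassium channel genes with a peak 5 passed as higher in RF3 and 2 as lower, against 10.3% and 1.8% of all genes. Promoter DARs stood at 4 of them, all higher in RF3, where 1.67% of all genes had one: Kcnj10, the inward rectifier of astrocytes, Kcnh2, Kcne2 and Kcna10. Kcnj10 had 5.06, 5.71, 4.65, 5.16 and 5.48 CPM in RF2 and 8.61, 9.29, 8.26, 8.45 and 8.70 CPM in RF3 (0.73, SE 0.09, adjusted p = 1.57e-07) and its groups did not overlap. Zinc finger genes named Zfp had 43 of 353 higher and 2 lower, with DARs at Zfp36l1 and Zfp36l2, which encode proteins that bind AU-rich RNA. Zfp36l2 had 11.8 to 12.6 CPM in RF2 and 16.3 to 19.7 CPM in RF3 (0.60). Of 95 cytosolic ribosomal protein genes 8 rose and none fell, and of 94 genes of the respiratory complexes 7 rose and 1 fell. These shares lie near the 10.3% of all genes. Of 37 olfactory and vomeronasal receptor genes with a peak 3 had a promoter DAR. Olfr452 and its neighbour Olfr453 (-0.62) were higher in RF2, and Olfr1391 was called higher in RF3, although its groups overlapped (0.523 to 0.917 CPM in RF2 and 0.842 to 1.42 CPM in RF3) and the call was lost in 9 of 18 alternatives.

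The replication-dependent histone genes had more members lower in RF3 than any other list. These genes supply histones to dividing cells and lie in clusters, the largest on chromosome 13. Of 65 genes with a promoter peak 35 were lower in RF3 and none higher, against 1.8% of all genes lower, with a median of -0.27. A loess scaling called 49 lower, and summing the alike libraries left 12. Over all peaks the loess scaling passed 11159 and the summed fit 2255, against 11335 in the main fit. The 35 included 9 of 17 H2a genes, 10 of 16 H2b, 9 of 12 H3, 5 of 14 H4 and 2 of 6 H1 genes. All 35 were on chromosome 13, where 52 genes shared 30 peaks and every gene had a negative value (median -0.31), whereas none of the 10 genes on chromosome 3, the 2 on chromosome 11 and the 1 on chromosome 6 passed, with medians of -0.04 and -0.03 for the first 2 groups and -0.15 for the last. H2ac12 and H2bc12, which share 1 peak between their starts, were the only ones past the limit on size, with 15.9, 14.8, 16.7, 16.5 and 19 CPM in RF2 and 11.8, 10.9, 12, 11.4 and 11.4 CPM in RF3 (-0.52, SE 0.07, adjusted p = 1.82e-07). The copies of these genes are nearly alike, so that reads could be lost or split between them, and values of single genes are uncertain.

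The shift covered the region around the histone genes as well. Between 21 and 24 Mb on chromosome 13, 129 of 144 peaks were lower in RF3 and 39 were DARs, all higher in RF2, with a median of -0.35. Summed over the region, the libraries had 1629, 1584, 1703, 1723 and 1851 CPM in RF2 and 1351, 1305, 1316, 1302 and 1319 CPM in RF3. The RF3 libraries were close to each other and all below the lowest of RF2. Of the 18 other genes there 6 passed, all lower in RF3 (median -0.20). Removing the mean ratio of every 1 Mb region left 6608 peaks past the test in all, against 11335 in the main fit. In this fit 5 peaks of the region were called higher in RF3 and 6 higher in RF2. Of the histone genes 7 were higher and 5 lower. The histone promoter peaks are themselves part of the mean that was removed, so that this balance follows in part from the removal.

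**Figure D2:**
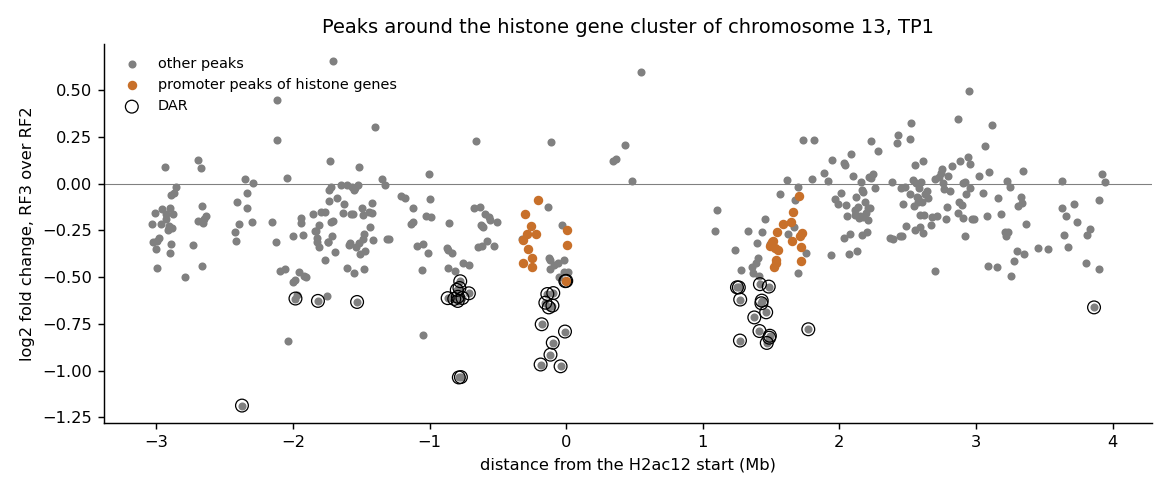
Log2 fold change (RF3 over RF2, vertical axis) of peaks around the histone genes of chromosome 13 at TP1, by distance from the start of H2ac12 in Mb (horizontal axis). Orange points are promoter peaks of histone genes, grey points other peaks, and rings mark DARs. Most points between 21 and 24 Mb lie below 0, at a median of -0.35.

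The largest change of all DARs lay far from any gene, a peak at chr6:10690472-10690885, over 1 Mb from the nearest start, that of Ndufa4, with 0.365, 0.431, 0.245, 0.508 and 0.421 CPM in RF2 and 1.71, 1.64, 1.38, 2.13 and 2.04 CPM in RF3 (2.16, SE 0.18, adjusted p = 1.79e-12). Here RF2 was the lowest of the 5 RFs, and RF1, RF4 and RF5 had means of 2.27, 2.90 and 2.45 CPM. Inside Prdm16, which encodes a zinc finger regulator of brown fat and neural progenitors, a peak at chr4:154574928-154575494 had 0.843, 0.862, 0.578, 0.477 and 0.793 CPM in RF2 and 1.97, 2.13, 2.66, 2.3 and 1.72 CPM in RF3 (1.60, SE 0.18, adjusted p = 1.35e-08). Peaks near Rtl1, an imprinted retrotransposon-derived gene, and near Smim38 rose by 1.44 (chr12:109911031-109911511) and 1.44 (chr7:145111590-145111980).

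In the other direction, a peak at chr2:124684760-124685107, 31.2 kb from the start of the axon guidance gene Sema6d, had 1.36, 1.79, 1.67, 1.31 and 1.69 CPM in RF2 and 0.588, 0.808, 0.639, 0.393 and 0.600 CPM in RF3 (-1.35, SE 0.21, adjusted p = 6.67e-06). A peak at chr2:53959632-53960324, 125 kb from Rprm, the gene of a p53-induced cell cycle arrest protein, had 2.98, 2.74, 2.89, 3.09 and 2.43 CPM in RF2 and 1.35, 1.08, 1.02, 1.35 and 1.36 CPM in RF3 (-1.21, SE 0.14, adjusted p = 4.42e-08). The 2 RFs did not overlap at these sites. The peak near Tprg changed by -1.27 (chr16:25029412-25029807), and one inside Adgrl3, which encodes the adhesion receptor latrophilin 3, by -1.10 (chr5:81814993-81815400). The peak upstream of Col19a1, a collagen gene, lay 25.2 kb from its start at chr1:24612661-24612848 and had 4.80, 5.34, 5.31, 4.85 and 5.38 CPM in RF2 and 4.74, 2.78, 2.99, 2.53 and 2.92 CPM in RF3 (-0.68, SE 0.13, adjusted p = 3.08e-04). All RF3 libraries were below those of RF2, with RF3 replicate 1 nearest to them. Across facilities this peak ranged much further, from means of 0.270 CPM in RF5 and 0.587 CPM in RF1 to 11.5 CPM in RF4.

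DARs of one direction came in runs along the chromosomes. Of 390 regions of 1 Mb with at least 3 DARs, 350 held DARs of a single direction. The region of chromosome 4 from 154 to 155 Mb had 29 DARs among 103 peaks, all higher in RF3, and 18 of the 34 peaks in Prdm16 were among them. Its summed level was 693, 737, 715, 671 and 697 CPM in RF2 and 811, 893, 918, 913 and 908 CPM in RF3, with RF3 replicate 1 the lowest of RF3 but above all of RF2. On chromosome 7, 14 of 107 peaks between 19 and 20 Mb, around Apoe and Apoc1, and 6 of 21 between 31 and 32 Mb, around Fxyd1, were DARs, all higher in RF3. With the mean of each region taken out, 11 of the 40 named peaks were no longer called, those of Adra1b, Apoe, Fxyd1, H2ac12, Lfng, Olfr1391, Olig1, Slc17a2, Smad6, Tmem119 and Zfp36l2.

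Whole chromosomes differed in the share of counts they took. The share of chromosome 7 was 6.20%, 6.32%, 5.95%, 5.95% and 5.85% in RF2 and 6.64%, 6.71%, 6.75%, 6.76% and 6.72% in RF3, in replicate order (exact permutation p = 0.00794, adjusted over 21 chromosomes 0.00980), and it held 328 DARs higher in RF3 and 6 higher in RF2. The groups did not overlap on 17 of 21 chromosomes, 8 of them higher in RF3 and 9 higher in RF2, and 18 passed an adjusted p of 0.05. Chromosomes 11, 17 and 19 were of the first kind, with 173, 128 and 73 DARs higher in RF3 and 20, 12 and 7 higher in RF2. Chromosomes 3, 13 and X were of the second, with 29, 29 and 1 DARs higher in RF3 and 137, 134 and 52 higher in RF2. The shares of a library sum to 100%, so that a rise on one chromosome lowers the others.

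**Figure D3:**
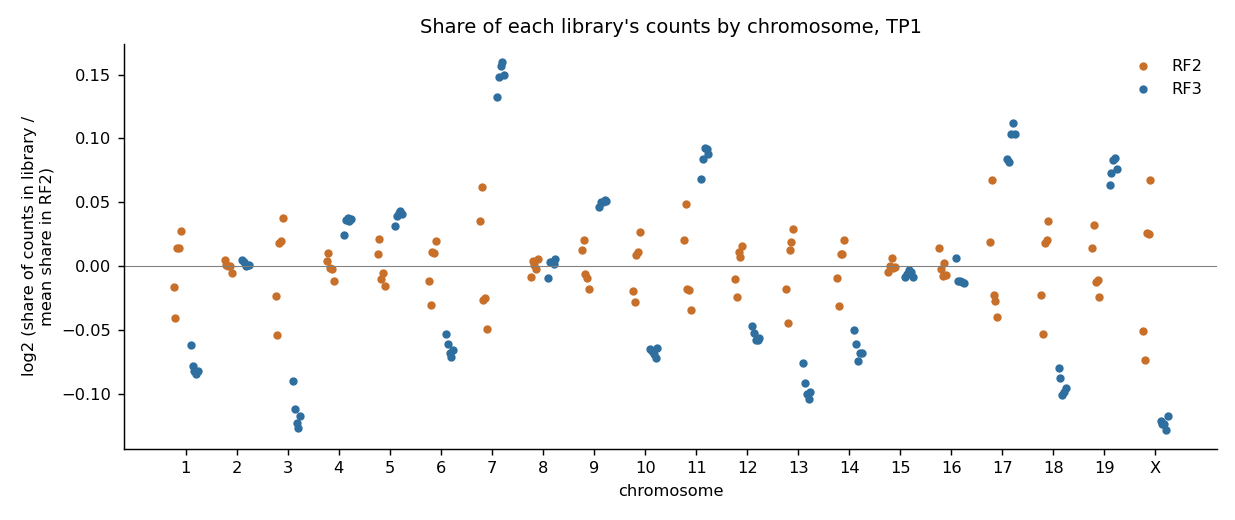
Share of each library's counts on each autosome and the X chromosome at TP1, as the log2 ratio to the mean share in RF2 (vertical axis), with 1 point per library. Of the chromosomes drawn, RF3 lies furthest above RF2 on chromosome 7, where its libraries hold 6.64% to 6.76% of counts against 5.85% to 6.32%.

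On sums of counts over 1 Mb regions with at least 10 peaks, 510 of 2316 regions passed the edgeR test (22%), 112 higher in RF3 (4.84%) and 398 higher in RF2 (17.2%). The changes were small, from -0.38 to 0.40 on the log2 scale with an SD of 0.13. The size of the change, though not the number of calls higher in RF3, followed the number of promoters. The median was -0.12 in the 259 regions with no promoter peak, -0.09 in the 842 with 1 to 4, 0.00 in the 872 with 5 to 14 and 0.16 in the 343 with 15 or more (Spearman's rho = 0.63 over regions, which share libraries and are not independent). In the same order 5, 33, 59 and 15 regions were called higher in RF3, and 36, 254, 105 and 3 higher in RF2. The count of regions fell to 273 without RF2 replicate 3, 281 without RF2 replicate 4, 313 without RF2 replicate 5, 266 without RF3 replicate 4 and 292 without RF3 replicate 5. The regional test was added after the data had been examined.

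Littermates of these mice were killed at 14 weeks of age (TP2), after a move to the test laboratory, and their libraries give the same measure in other animals. TP2 gave 3699 DARs between RF3 and RF2 (2.56%), 1805 higher in RF3 (1.25%) and 1894 higher in RF2 (1.31%). The differences of TP1 did not recur in the same direction. Of the 1763 DARs higher in RF3 at TP1, none was a DAR of that direction at TP2, 274 were DARs higher in RF2, and 12.5% kept their sign, with a TP2 median of -0.38. Of the 1363 higher in RF2, 1 was a DAR of that direction, 55 were DARs of the other, and 17.3% kept their sign, with a median of 0.23. Over all peaks 49.9% were positive at TP2 and the median was 0.00. The only DAR common to both TPs was the peak upstream of Col19a1, at -0.68 at TP1 and -1.87 ± 0.32 (SE) at TP2. TP2 was amplified and sequenced in a batch of its own, so that time, the move and that batch cannot be told apart.

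The change between TPs was tested as an interaction, which passed an adjusted p of 0.01 at 23894 of 144461 peaks (16.5%). It passed at 71.6% of the DARs higher in RF3 and 63.0% of those higher in RF2, where the values that chose the peaks also enter the test. Of the 40 named peaks, 35 had the opposite sign at TP2, 10 of them as DARs. Fxyd1 went from 0.93 at TP1 to -1.33 at TP2, Apoc1 from 0.93 to -1.22, Olig2 from 0.70 to -0.97 and Gfap from 0.81 to -0.57. Aqp1 was among those that kept their sign (0.32 at TP2). Of the 510 regions 6.08% kept their sign. The Prdm16 region reversed, with 15 DARs higher in RF2 and none higher in RF3. The histone region had a median of -0.04 at TP2 and 1 DAR, which was higher in RF3. Of the 30 promoter peaks of its histone genes 0 passed an adjusted p of 0.01 there. The share of chromosome 7 was 5.18% to 6.08% in RF2 and 4.89% to 5.11% in RF3 at TP2. TP2 totals were lower, from 7287029 counts in RF2 replicate 3 to 29361894 in RF3 replicate 2, and without RF2 replicates 3 and 5 of TP2 12.6% and 20.3% of the TP1 DARs kept their sign.

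**Figure D4:**
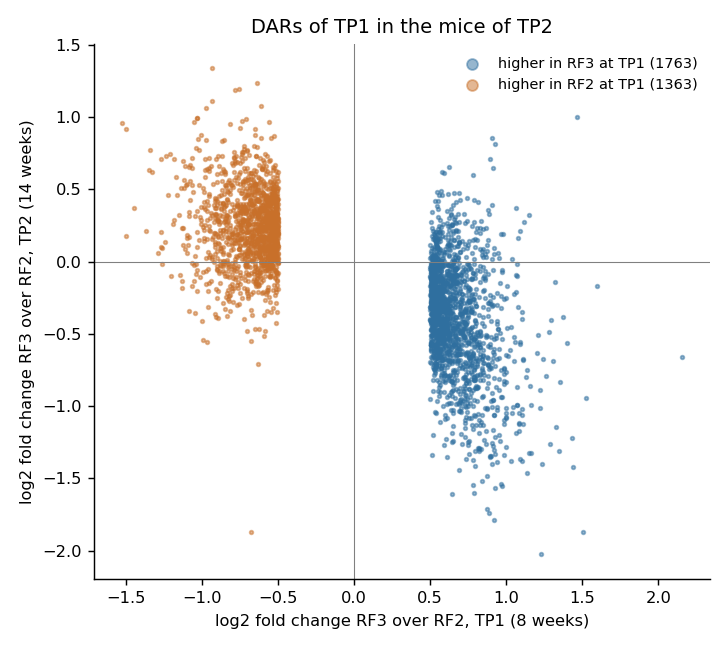
Log2 fold change (RF3 against RF2) of the TP1 DARs at TP1 (horizontal axis) and in littermates at TP2 (vertical axis), 1 point per peak, coloured by direction at TP1. Of the DARs higher in RF3 at TP1 12.5% lie above 0 at TP2, and of those higher in RF2 17.3% lie below 0.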

How the data were processed

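The authors performed ATAC-seq on 80000 NeuN-positive nuclei per library, used fastp 0.20.1 for trimming and Bowtie2 2.3.5.1 for alignment to GRCm38 (Ensembl 102), discarded discordant and multiply mapped pairs, and flagged duplicate pairs (Picard 1.140). Broad peaks were called per library with MACS2 2.1.4 (q of 0.05, broad cutoff of 0.1), those present in at least 3 of a group's 5 libraries were merged with multovl 1.3, and featureCounts 2.0.1 gave the reads per peak. All tests rest on these raw counts as deposited, which carry no normalization. The deposited peak lists also carry -log10 q values from MACS2, but their positions alone were used. The deposited table of normalized counts is identical to the raw counts and was not used. The list of merged peaks holds a whole number (1 to 10) for every peak, and these numbers entered no test.

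The tests on counts used edgeR 4.0.16 (R 4.3.3, TMM, filterByExpr by group, robust quasi-likelihood F-tests with Benjamini-Hochberg adjustment over all peaks) in a model of the 25 TP1 libraries with RF and the replicate number as block, after the authors' design of RF and processing batch in DESeq2. The replicate number was taken to stand for the sorting batch, because each batch held 1 sample of each RF. The labels do not state the batch, so that this remains an assumption. At TP2 the sample numbers in some titles also depart from the order of the replicate numbers. RF2 was subtracted from RF3, and a DAR needed an adjusted p below 0.01 with a log2 fold change of 0.5 or more in either direction. Adjusted p-values of single peaks, genes and regions come from edgeR. TP2 was fitted in the same way, and the interaction over all 50 libraries. Facility's share of variation used Manhattan distances of log2 normalized counts with a pseudocount of 1. Exact permutation tests enumerated all 252 assignments of 10 libraries and were two-sided. Where 1 library was left out, they enumerated all assignments of the remaining ones. Total counts per library, given with the results, set the precision.

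Genes come from RefSeq on GRCm38.p6, and for the 4392 of 21883 protein-coding genes without a known strand both ends were taken as starts. The 37 gene lists, 24 of pathways and families and 13 of cell types, and the genes compared were chosen with earlier results of these data known. Named were the 8 genes with the largest change in each direction among promoter DARs with at least 1 CPM on average and the same sign in all 5 pairs of like-numbered libraries, the 4 such DARs outside promoters in each direction, the promoter DAR with the lowest p per list and direction, and the peak upstream of Col19a1. Other named list members are those that passed the adjusted p, or markers given beside them. A few list members are not reported here.

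Libraries were taken as 1 sample in means and SDs where every pair among them differed by no more than 1.02 times the sampling variance over peaks with 500 to 5000 counts on average. Because a read pair can give 2 counts, the binomial variance was multiplied by 2 for this. Odd counts were also present, so that not every pair gave 2 counts and the factor may be too large. Each library is 1 mouse by its labels, and single tests used all 5 per group. Alternatives used DESeq2 1.42.0 and limma 3.58.1, other scalings, filters, designs and left-out libraries. The test was checked on simulated counts. Python 3.11.15, numpy 2.4.6, pandas 2.3.3 and matplotlib 3.10.9 were used for summaries and plots.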

Additional observations from a re-analysis of the deposited data

Results flagged for a closer look

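In 10 of 104 groups of 5 libraries examined, 1 library lay far from the other 4, where chance gives about 1 in 20. The groups covered the named peaks and regions, the total counts, the promoter shares and the shares of several chromosomes. All 10 were at named peaks or regions. RF2 replicate 5 was apart at Tbc1d23 (3.82 CPM), at Tcf7l2 (3.84 CPM) and at Olfr1391 (0.917 CPM). RF2 replicate 1 was apart at Apoe (7.44 CPM) and RF2 replicate 2 in the Apoe region (1737 CPM). RF3 replicate 1 was apart at the peak upstream of Col19a1 (4.74 CPM) and in the Prdm16 region (811 CPM), RF3 replicate 2 near Rtl1 (1.17 CPM) and at Apoe (8.33 CPM), and RF3 replicate 4 at Adra1b (0.842 CPM).

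The difference between RF3 and RF2 changed between TP1 and TP2 at 23894 peaks in edgeR's test of the interaction (adjusted p below 0.01, 16.5% of peaks), and at 32 of the 40 named peaks. Values in brackets are the TP1 log2 fold change minus that of TP2. Higher at TP1 were the peak near Rtl1 (2.86), the peak near Ndufa4 (2.80), the peak near Smim38 (2.64), Fxyd1 (2.25), Apoc1 (2.14), Syt8 (2.05), the peak in Prdm16 (1.75), Rlbp1 (1.71), Olig2 (1.68), Fgr (1.63) and Slc38a3 (1.57), then Myt1 (1.55), Tcf7l2 (1.46), Apoe (1.45), Aldh1l1 (1.44), Gfap (1.38), Kcnj10 (1.36), Foxj1 (1.33), Smad6 (1.18), Zfp36l2 (1.18), Olig1 (1.08) and Lfng (1.08). Lower at TP1 were the peak near Sema6d (-2.0), the peak near Tprg (-1.99), Prps1l3 (-1.37), Olfr452 (-1.36), the peak in Adgrl3 (-1.18), Il1a (-1.15), the peak near Rprm (-1.12), Tbc1d23 (-0.94), Frem3 (-0.92) and H2ac12 (-0.56). The TP1 values chose these peaks, so that part of the change was built into the choice. The weight of time, the move and the sequencing batch of TP2 cannot be told apart.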

How the results depend on the processing

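With the mean ratio of every 1 Mb region removed, 1464 DARs (934 higher in RF3, 530 higher in RF2) and 116 genes with a promoter DAR were called instead of 3126 (1763 and 1363) and 285. With libraries within sampling noise summed and no replicate block the counts were 1311 (932 and 379) and 176, from fewer samples. A fit on the 10 libraries alone gave 4226 DARs, 1956 higher in RF3 and 2270 higher in RF2 (46.3% higher in RF3, against 56.4%), and a loess scaling 2119 and 1013 (67.7%), and for both the cause was not tested. DESeq2 size factors, DESeq2 itself and no filter on low counts gave 3097, 3384 and 3128. Leaving out 1 library at a time gave 1957 to 3740 DARs, 1258 to 2111 higher in RF3 and 699 to 1629 higher in RF2, 220 to 369 genes with a promoter DAR, a facility share of 34.1% to 38.8%, a promoter share difference of 0.479 to 1.12 percentage points (the highest without RF3 replicate 1, exact permutation p = 0.0397) and 266 to 584 regions. Without the replicate block there were 2807 DARs (1659 and 1148), 273 genes with a promoter DAR, 3490 DARs at TP2, 22237 interactions and 351 regions. Like-numbered libraries of RF2 and RF3 deviated together at correlations of -0.03 to 0.19 (mean 0.05, 1 of 5 over 0.1), and 3 of 5 RF2 libraries correlated best with their own number, so that the numbers were not shown to pair the samples. Without RF2 replicates 3 and 5 of TP2, 4452 DARs at TP2 and 22397 interactions were called. None of the 40 named peaks changed sign in any of 18 alternatives and 24 kept the call in all, while 11 lost it with region means taken out, 9 with libraries summed, 4 under loess scaling and up to 7 without 1 library. The 1 Mb regions and their alternatives were chosen after seeing the data. Depth was not limiting for peaks of several CPM, whereas DARs below 1 CPM rest on few reads per library.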
